A study of Mus musculus with 6 samples.

Results

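A set of 10 genes known as targets of MRTF and SRF, transcription factors that respond to the state of actin, was followed in mouse knee articular cartilage with and without adseverin: Acta2, Tagln, Tagln2, Cnn1, Cnn2, Myl9, Cald1, Fhl2, Mylk and Srf itself. The genes were taken by symbol, and all 10 were found among 55401 gene identifiers, 9 of them with enough reads to be among the 16260 genes tested. None of the 9 passed an adjusted p of 0.05 in edgeR, where 0.00615% of all genes tested passed. Tagln2 passed in DESeq2, where 0.538% of genes with an adjusted p did, and 3 of the 9 were lower at an unadjusted p under 0.05 in edgeR, against 2.96% of all genes. Of the 9, 8 had a log2 fold change below 0 (cKO minus WT), and in 4 of them, Tagln2, Cald1, Fhl2 and Mylk, every cKO library lay below every WT library, as was so for 5.89% of all genes tested. The smooth muscle genes Acta2, Cnn1 and Myl9 were highest in 1 library, WT 2, whose skeletal muscle transcripts were also the highest. Acta2 was lowest in cKO 1, where skeletal muscle markers summed to 171 CPM, above WT 1 and WT 3. The smooth muscle gene Myh11 was, like Acta2, lowest in cKO 1 (0.0443 CPM) and highest in WT 2 (13.3 CPM). The part of muscle tissue in these values was not tested.

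The groups were adseverin knockout (cKO), with 3 libraries, and wild type (WT), with 3 libraries, both from knee joint articular cartilage harvested at 10 weeks of age. Mice of both groups, WT included, had received 1.5 mg of tamoxifen per 10 g of body weight on each of 5 days from 8 weeks of age. The sample titles are CKO1 to CKO3 and CTRL1 to CTRL3. The labels do not state the Cre driver, the deleted exons or the sex of the mice. Nor do they say that each library came from its own mouse, so a p-value here speaks only to the spread among libraries, part of which may be technical. Read totals were 22664828 to 31014996 per library. Levels are CPM, reads scaled to library size with TMM factors, with mean ± SD over 3 libraries per group, and fold changes carry their SE.

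MRTF proteins bind monomeric actin and are held in the cytoplasm by it. When actin assembles into filaments the monomer pool shrinks, and MRTF enters the nucleus, joins SRF and switches on genes of the contractile cytoskeleton through a DNA element called the CArG box. In cartilage, an organised actin cytoskeleton with stress fibres is a known feature of chondrocytes that spread and lose their rounded shape, and Acta2 is the classic marker of that contractile state. Adseverin, encoded by Scin, severs and caps actin filaments.

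The promoters show where the element lies in these genes. RefSeq promoter windows of GRCm38.p6, from 250 bases before to 50 bases after a start, were found for 9 of the 10 genes; Tagln was not matched. An exact CArG box was found on either strand in the windows of 4 of 9 genes (44.4%), Cnn2, Fhl2, Myl9 and Srf, and in those of 1.81% of all 27025 genes in the table. A CArG-like box, in which 1 base of the A or T core is G or C, was allowed as well. With it, 5 of 9 genes (55.6%) had a box, Acta2 being added, against 11.3% of all genes. The stretches around the boxes are printed 5′ to 3′ on the strand of the gene, with each box in capitals, and all end before the start site.
Acta2, chr19:34255378-34255477, minus strand, 2 CArG-like boxes: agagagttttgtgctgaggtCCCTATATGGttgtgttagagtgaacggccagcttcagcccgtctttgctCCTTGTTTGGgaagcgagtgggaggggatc
Myl9, chr2:156775283-156775394, plus strand, 1 exact and 1 CArG-like box: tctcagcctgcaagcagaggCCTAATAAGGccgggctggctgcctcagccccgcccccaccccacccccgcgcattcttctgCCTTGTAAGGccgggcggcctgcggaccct
Cnn2, chr10:79988524-79988573, plus strand, 1 exact box: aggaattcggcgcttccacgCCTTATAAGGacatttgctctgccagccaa
Fhl2, start 1, chr1:43196828-43196877, minus strand, 1 exact box: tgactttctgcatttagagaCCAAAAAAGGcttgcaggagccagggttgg
Fhl2, start 2, chr1:43163963-43164012, minus strand, 1 exact box: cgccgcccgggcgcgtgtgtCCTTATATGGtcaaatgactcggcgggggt
Srf, chr17:46556195-46556264, minus strand, 2 exact boxes: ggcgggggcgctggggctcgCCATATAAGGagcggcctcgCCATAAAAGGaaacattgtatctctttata

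The boxes of Srf begin 82 and 62 bases before the start, those of Acta2 84 and 34 bases before it, and those of Myl9 161 and 99 bases before it. The windows of Cald1 (2 starts), Cnn1, Mylk and Tagln2 held neither kind of box, which says only that these letters are not in these windows. A match is a description of letters and not a site shown to be bound here.

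**Figure D1:**
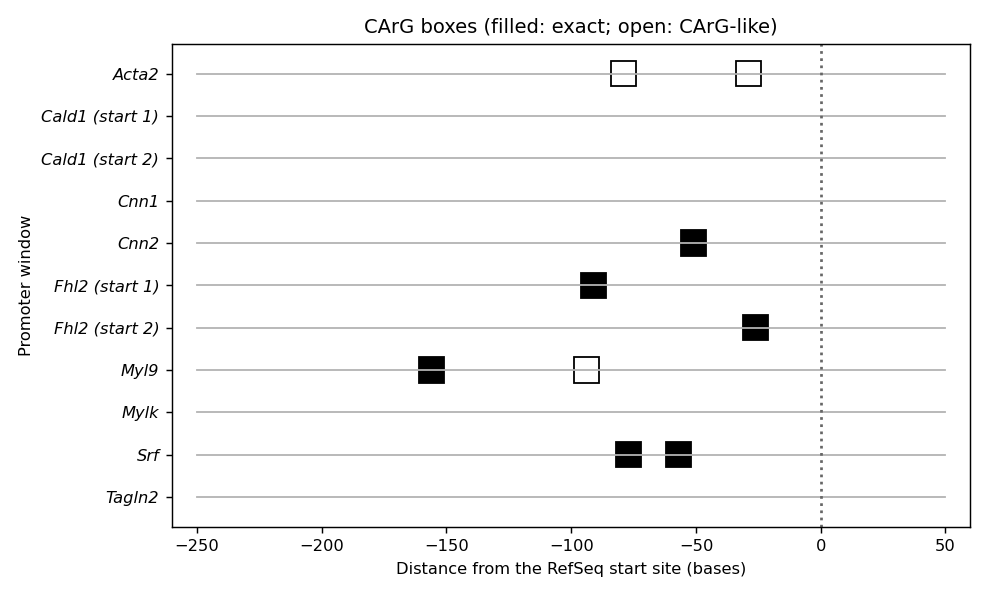
Positions of CArG boxes in the promoter windows of the 9 matched genes, as distance in bases from the RefSeq start site; filled boxes are exact and open boxes are CArG-like. Cnn2, Fhl2, Myl9 and Srf have exact boxes, Acta2 has 2 CArG-like boxes, and the windows of Cald1, Cnn1, Mylk and Tagln2 are empty.

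Scin was measured first as a check of the labels. Scin stood at 39.1, 29.9 and 29.4 CPM in the cKO libraries, against 186, 185 and 219 CPM in the WT libraries, a log2 fold change of -2.59 ± 0.14 (edgeR quasi-likelihood test, adjusted p = 6.59e-04), and it was the 1 gene of 16260 to pass (0.00615%). Summed over 8 cartilage markers, libraries held 49403 to 55380 CPM in cKO and 45649 to 48075 CPM in WT, so the labelled tissue carried its defining transcripts. Every cKO sum lay above every WT sum. By gene, 3 of the 8 had every cKO library above every WT library, against 6.41% of all genes tested. The reverse held for Acan and for 5.89% of all genes tested. Acan was at 708, 949 and 989 CPM in cKO, against 1273, 1322 and 1440 CPM in WT (log2 fold change -0.61 ± 0.13, edgeR adjusted p = 0.535). Bone markers were abundant too, 7 osteoblast and osteocyte genes summing to 37405 to 38972 CPM in cKO and 31930 to 38266 CPM in WT. WT 2 stood apart in skeletal muscle: its 9 muscle markers summed to 1330 CPM, against 30.3 and 56.8 CPM in the other WT libraries and 30.2 to 227 CPM in cKO. Adipocyte markers (6 genes, with Lep at 0 in all) summed to 19.7 to 31.2 CPM in cKO and 21.8 to 160 CPM in WT, again highest in WT 2. The other marker sums overlapped between the groups. They were 347 to 417 CPM in cKO and 337 to 409 CPM in WT for 12 pericyte and smooth muscle genes, and 37.3 to 68.1 CPM in cKO and 50.6 to 76.5 CPM in WT for 8 endothelial genes. Fibroblast markers (9 genes) summed to 11897 to 18584 CPM in cKO and 14078 to 19164 CPM in WT, and macrophage markers (8 genes) to 276 to 358 CPM in cKO and 327 to 491 CPM in WT. Tendon markers (6 genes) summed to 2116 to 3068 CPM in cKO and 2063 to 2512 CPM in WT, and erythroid markers (6 genes) to 2841 to 4369 CPM in cKO and 2735 to 3065 CPM in WT. A sum rests on its most abundant genes, such as Col1a1 and Col1a2 for fibroblasts and Fmod and Thbs4 for tendon. That of pericytes and smooth muscle rests on Cspg4 and Rgs5. Genes at a low level, such as Myh11 (at most 13.3 CPM in any library), hardly enter it, so its overlap says little of them. The counts by gene are given with the counts of the members.

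Acta2 encodes alpha smooth muscle actin, the actin isoform of smooth muscle and of contractile mesenchymal cells (chromosome 19, 34241090 to 34255590, minus strand). Acta2 was at 1.02, 10.6 and 7.2 CPM in cKO 1 to 3, against 7.12, 46.8 and 6.0 CPM in WT 1 to 3. The groups overlap: cKO 1 is the lowest, WT 2 is the highest, and the other 4 libraries lie close together across both groups. The log2 fold change was -1.65 ± 0.93 (edgeR adjusted p = 0.832). With WT 2 left out it was -0.06 ± 0.75 (edgeR adjusted p = 0.999). These are bulk tissue values, in which fewer cells of a type and less RNA per cell cannot be told apart.

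Cnn1, calponin 1, an actin-binding protein that restrains myosin in smooth muscle (chromosome 9, 22099216 to 22109630, plus strand), was near absent and was not tested. It had 0, 7 and 2 reads in cKO, against 0, 87 and 4 reads in WT, so WT 2 held nearly all of them. A count of 0 allows up to 0.133 CPM in cKO 1 and 0.107 CPM in WT 1, counting error only.

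Tagln, transgelin or SM22 alpha, a small calponin-family protein of smooth muscle (chromosome 9, 45929619 to 45936058, minus strand), was also low. It had 3, 18 and 12 reads in cKO, against 23, 26 and 13 reads in WT, that is 0.133, 0.593 and 0.502 CPM in cKO and 0.818, 1.14 and 0.494 CPM in WT. The groups overlap, with cKO 1 lowest and WT 2 highest as for Acta2, and the log2 fold change was -0.98 ± 0.73 (edgeR adjusted p = 0.884). It was -0.57 ± 0.79 without cKO 1 and -0.67 ± 0.94 without WT 2. Of its 1988 exon bases, 1241 are shared with exons of Gm48529 on the opposite strand, which had 80 reads over the 6 libraries against 95 for Tagln. With exons of Pcsk7, also on the opposite strand and with 4836 reads, 108 of its bases are shared. Whether the counting used strand is not stated, so reads from the shared bases cannot be told apart, and the low level of Tagln may understate or overstate its transcript.

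Myl9 encodes a regulatory light chain of smooth muscle and non-muscle myosin (chromosome 2, 156775420 to 156781658, plus strand). Myl9 was at 10.6, 10.1 and 17.6 CPM in cKO, against 11.8, 30.1 and 12.8 CPM in WT. WT 2 is again the highest, and without it cKO 3 would be. The log2 fold change was -0.51 ± 0.39 (edgeR adjusted p = 0.884), and 0.044 ± 0.28 with WT 2 left out (edgeR adjusted p = 0.999).

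Mylk encodes myosin light chain kinase, the enzyme that phosphorylates those light chains (chromosome 16, 34745210 to 35002420, plus strand). Mylk was at 19.2, 13.7 and 19.9 CPM in cKO, against 23.1, 21.9 and 24.2 CPM in WT. The groups do not overlap, cKO 2 being the lowest, and WT 2 is not the highest WT library here. On the log2 scale cKO minus WT was -0.39 ± 0.17 (edgeR adjusted p = 0.777), -0.43 ± 0.20 with WT 2 left out (edgeR adjusted p = 0.855) and -0.24 ± 0.15 with cKO 2 left out (edgeR adjusted p = 0.933).

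**Figure D2:**
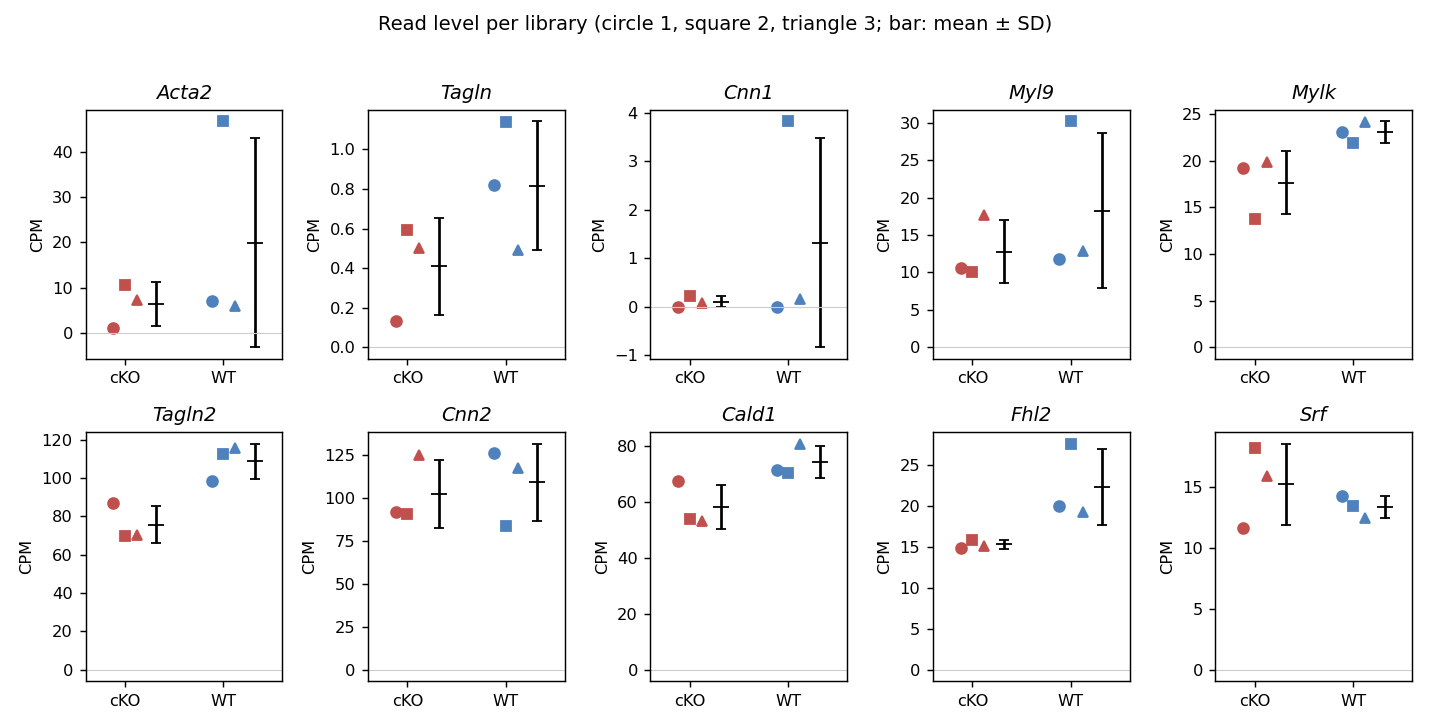
CPM of the 10 genes in each library, cKO left and WT right in each panel, with circle, square and triangle for libraries 1, 2 and 3 and bars for the mean ± SD of 3 libraries. WT 2 is far above the rest for Acta2 and Cnn1 and is the highest for Myl9, whereas the groups are apart for Tagln2, Cald1, Fhl2 and Mylk.

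Tagln2, transgelin 2, is the broadly expressed relative of Tagln and binds actin filaments outside muscle (chromosome 1, 172500047 to 172507380, plus strand). Tagln2 was at 86.9, 69.8 and 70.4 CPM in cKO, against 98.6, 112 and 116 CPM in WT. The groups do not overlap, and the spread within each was small, with means of 75.7 ± 9.72 CPM in cKO and 109 ± 9.12 CPM in WT. Its log2 fold change was -0.53 ± 0.12, which is 69.5% of the WT level (edgeR adjusted p = 0.596, unadjusted p = 0.00173). DESeq2 on the same counts gave -0.53 ± 0.13 and an adjusted p of 0.0192; over all alternatives the adjusted p was 0.0192 to 0.909. With WT 2 left out the value was -0.51 ± 0.14.

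Cnn2, calponin 2, is the calponin of non-muscle cells (chromosome 10, 79988584 to 79996062, plus strand). Cnn2 was at 91.9, 90.5 and 125 CPM in cKO, against 126, 83.9 and 118 CPM in WT. The groups overlap over their whole range and WT 2 is the lowest of the 6 libraries, the reverse of its place for Acta2. A log2 fold change of -0.09 ± 0.18 was found (edgeR adjusted p = 0.965), and it turned to 0.016 ± 0.20 with WT 1 left out and stood at -0.26 with WT 2 or with cKO 3 left out.

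Cald1 encodes caldesmon, which binds actin and tropomyosin and holds back myosin (chromosome 6, 34598500 to 34775473, plus strand). Cald1 was at 67.5, 54.1 and 53.3 CPM in cKO, against 71.7, 70.6 and 81 CPM in WT. The groups do not overlap, though cKO 1 lies just under the lowest WT library. Caldesmon's log2 fold change was -0.35 ± 0.12 (edgeR adjusted p = 0.700, unadjusted p = 0.0188), and -0.40 ± 0.14 with WT 2 left out.

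Fhl2 encodes a LIM-domain protein that binds SRF and other transcription factors and is itself a target of the pathway (chromosome 1, 43123074 to 43196984, minus strand). Fhl2 was at 14.8, 15.8 and 15.1 CPM in cKO, against 19.9, 27.6 and 19.2 CPM in WT. The groups do not overlap, the cKO libraries are nearly equal, and WT 2 stands above the other WT libraries. The log2 fold change was -0.54 ± 0.18 (edgeR adjusted p = 0.683, unadjusted p = 0.0144), and -0.36 ± 0.16 with WT 2 left out (edgeR adjusted p = 0.855).

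Srf, the DNA-binding partner of MRTF, is the 1 gene of the 9 with a value above 0 (chromosome 17, 46548329 to 46556175, minus strand). Srf was at 11.6, 18.2 and 15.9 CPM in cKO, against 14.2, 13.5 and 12.5 CPM in WT. The cKO libraries include both the lowest and the highest of the 6, so the groups overlap. The log2 fold change was 0.19 ± 0.20 (edgeR adjusted p = 0.919), and lay between 0.041 and 0.35 when each library in turn was left out.

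Set against all genes, 8 of the 9 tested genes were below 0 with a median log2 fold change of -0.51, where 49.4% of all 16260 genes were below 0 and the median was 0.00369. Without WT 2, 7 of 9 were below 0 and the median was -0.36; without cKO 2 it was -0.37 with 8 of 9 below 0. No overlap, with every cKO library below every WT library, held for 4 of 9, and for 5.89% of all genes tested. An unadjusted p under 0.05 with a lower value in cKO was found for 3 of 9 (Tagln2, Fhl2 and Cald1) and for 2.96% of all genes, and none of the 9 was higher at that level, against 3.54% of all genes. Without WT 2 the 3 became 2, Tagln2 and Cald1, where 1011 of 17254 genes had such a p in either direction. An adjusted p under 0.05 was reached by 0 of 9 with edgeR and with limma-voom and by 1 of 9, Tagln2, with DESeq2, which called 91 of the 16906 genes it gave an adjusted p (0.538%). The genes were picked with such results known, so these counts describe them and are no test of the set.

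Markers of several other cell types also had mostly negative values in the same comparison. Below 0 were 8 of 9 fibroblast markers (median log2 fold change -0.40), 7 of 8 macrophage markers (-0.31), 6 of 8 endothelial markers (-0.46), 8 of 11 pericyte and smooth muscle markers (-0.16), 5 of 5 adipocyte markers (-1.44) and 7 of 7 skeletal muscle markers (-1.29). Chondrocyte markers had 1 of 8 below 0 (median 0.23), osteoblast and osteocyte markers 1 of 7 (0.26), and tendon and erythroid markers 0 of 4 and 0 of 6. The tendon markers Tnmd and Kera had too few reads to be tested and are not in that count. Tnmd had 0, 7 and 0 reads in cKO, against 0, 50 and 17 reads in WT. Kera had 0 reads in each cKO library, against 5, 14 and 22 reads in WT. Without WT 2, 0 of 7 skeletal muscle markers were below 0 (median 1.23), and the medians were -0.19 for fibroblasts, -0.53 for macrophages, -0.25 for endothelium, -0.13 for pericytes and smooth muscle, and -0.63 for adipocytes. Over single libraries left out, the medians ran from -0.45 to -0.19 for fibroblasts, -0.56 to -0.14 for macrophages, -0.77 to -0.25 for endothelium and -0.59 to -0.013 for pericytes and smooth muscle, all below 0. Those of chondrocyte and of osteoblast and osteocyte markers stayed above 0. The tendon median turned to -0.017 without cKO 2, with 2 of 4 markers below 0. The part of these cell types in the values of the 10 genes was not tested.

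**Figure D3:**
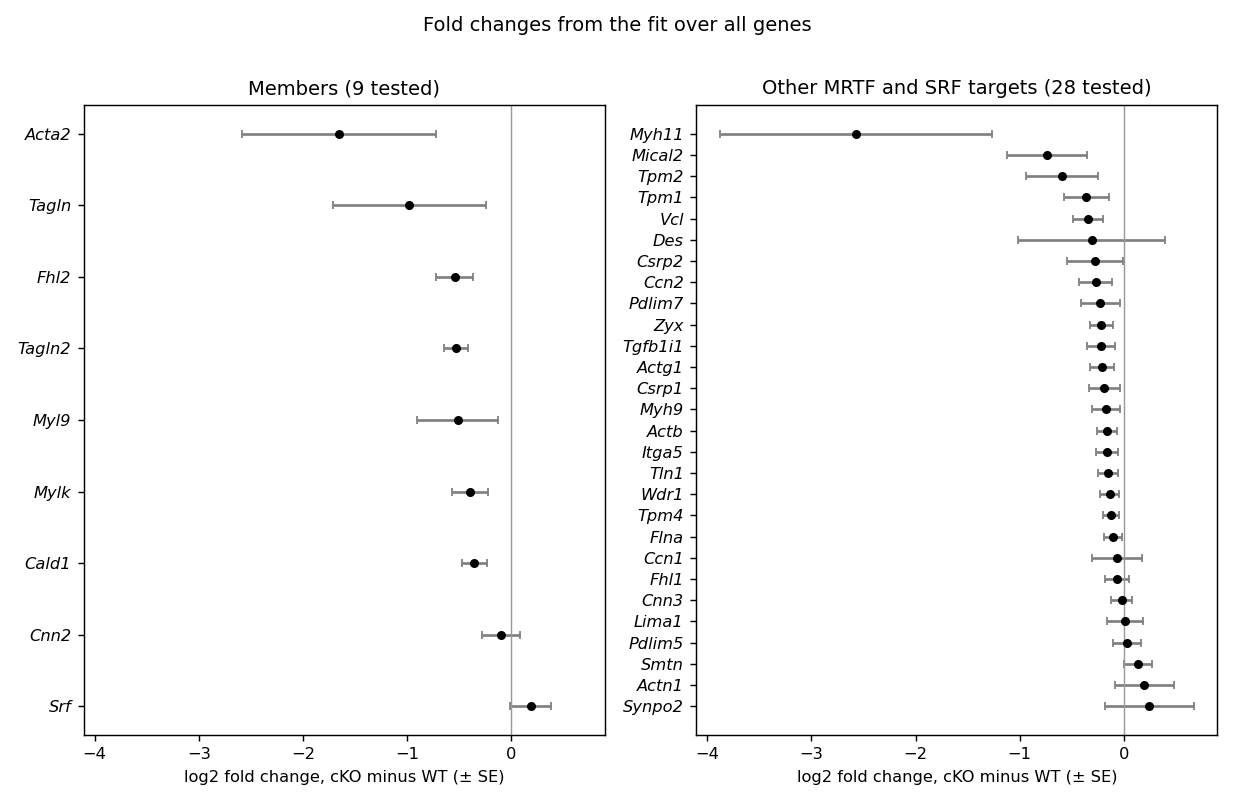
Log2 fold change (cKO minus WT) ± SE from the fit over all genes, for the 9 tested members on the left and 28 other MRTF and SRF targets on the right, each ordered from low to high. Most points lie left of 0 in both panels, with wide errors for Acta2, Tagln and Myh11.

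The genes fall apart by how their libraries are ordered. WT 2 was the highest library for 4 of the 9 tested genes (Acta2, Tagln, Myl9 and Fhl2) and the lowest for 1 (Cnn2), while cKO 1 was the lowest for 4 (Acta2, Tagln, Fhl2 and Srf). In WT the SD was 116% of the mean for Acta2 and 56.4% for Myl9, but 8.37% for Tagln2, 7.67% for Cald1 and 4.94% for Mylk. Of 9 skeletal muscle markers, 8 were highest in WT 2, Myh1 being the exception, and of 12 pericyte and smooth muscle markers, 6 were (Rgs5, Notch3, Mcam, Myh11, Des and Lmod1). Acta1, the skeletal muscle actin, was at 96.3, 99.2 and 4.73 CPM in cKO, against 26.6, 762 and 7.68 CPM in WT. Myh11, the smooth muscle myosin heavy chain, was at 0.0443, 0.395 and 2.26 CPM in cKO, against 0.534, 13.3 and 2.2 CPM in WT. Myh11 was lowest in cKO 1 and highest in WT 2, as Acta2 was. The 2 most abundant pericyte markers were Cspg4, at 169, 197 and 177 CPM in cKO, against 144, 156 and 159 CPM in WT, and Rgs5, at 93.7, 52.9 and 110 CPM in cKO, against 54.3, 118 and 72.0 CPM in WT. Rgs5 was highest in WT 2, and Cspg4 was higher in every cKO library than in any WT library. The part of muscle or vessel tissue in the Acta2, Cnn1, Tagln and Myl9 values was not tested. For Tagln2, Cald1 and Mylk, the fold change was within 0.05 on the log2 scale of its full value when WT 2 was left out, whereas Mylk moved to -0.24 without cKO 2. Of 1986 stretches of 50 bases in the Acta2 transcript, 7 (0.352%) occur in a transcript of another gene, so at that length nearly all of its sequence is its own.

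**Figure D4:**
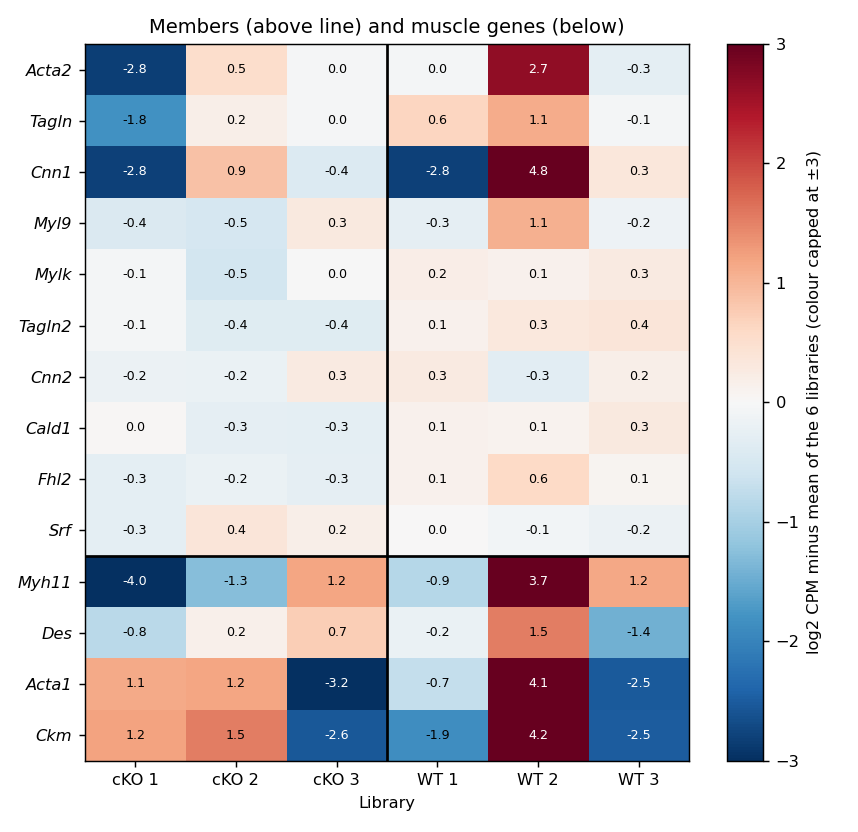
Log2 CPM of each gene in each library minus its mean over the 6 libraries, cKO at left and WT at right, with the 10 members above the line and Myh11, Des, Acta1 and Ckm, genes of smooth and skeletal muscle, below it. WT 2 is high for Acta2 (2.67), Cnn1 (4.81), Myh11 and Acta1, and the rows of Tagln2, Cald1 and Mylk are pale, with every cKO library below every WT library.

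**Figure D5:**
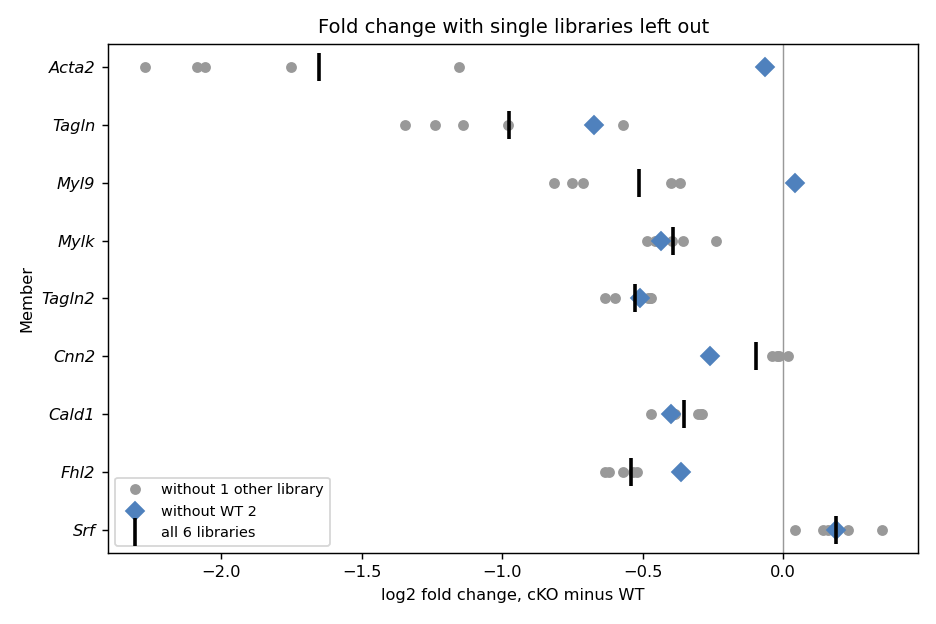
Log2 fold change (cKO minus WT) of the 9 tested genes with all 6 libraries (bar), without WT 2 (diamond) and without each other library (grey points). Leaving out WT 2 takes Acta2 to -0.06 and Myl9 to 0.044, and leaves Tagln2 at -0.51.

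Per kilobase of annotated exon, the non-muscle genes were the most expressed. Tagln2 stood at 36.4 ± 4.67 RPKM in cKO and 52.3 ± 4.38 RPKM in WT, and Cnn2 at 41.7 ± 7.95 RPKM in cKO and 44.5 ± 9.14 RPKM in WT. The ranges of the pair overlap within each group, so their order is not set. Myl9 followed at 11 ± 3.61 RPKM in cKO and 15.7 ± 8.86 RPKM in WT, then Fhl2 at 8.04 ± 0.273 RPKM in cKO and 11.7 ± 2.44 RPKM in WT. Srf was at 5.27 ± 1.15 RPKM in cKO and 4.63 ± 0.306 RPKM in WT, Cald1 at 4.84 ± 0.663 RPKM in cKO and 6.18 ± 0.474 RPKM in WT, and Acta2 at 2.86 ± 2.22 RPKM in cKO and 9.10 ± 10.6 RPKM in WT. The range of Acta2 in WT overlaps those of all these genes except Tagln2 and Cnn2, and Srf and Cald1 overlap in cKO but not in WT. Mylk was at 1.56 ± 0.300 RPKM in cKO and 2.05 ± 0.101 RPKM in WT. Cnn1 and Tagln were at or below 0.574 RPKM in every library except Cnn1 in WT 2 (1.40 RPKM). Exon lengths join all annotated isoforms, which lowers the per-length value of the long genes Cald1 (12041 bases) and Mylk (11263 bases).

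Genes with a pattern close to that of Acta2 were looked for among genes with a mean of at least 2 CPM, by the root mean square distance between centred log2 CPM over the 6 libraries. Genes with a predicted-gene or clone symbol were left out, and Cnn1 and Tagln lay under the CPM limit. The closest of the genes searched were Chst7, Apod, Ackr1, Tppp and Pparg, at distances of 0.774 to 0.852. None of those searched thus followed the full swing of Acta2 between cKO 1 and WT 2. Apod, which encodes the lipid-binding apolipoprotein D, was at 1.46, 3.88 and 3.18 CPM in cKO, against 4.95, 16.4 and 6.73 CPM in WT. For Tagln the closest were Arsi (0.147), Chst7, Col18a1, Nox4 and Adamts7, the last at 0.273. The pattern of Tagln rests on 3 reads in cKO 1 and at most 26 in any library, so these distances carry much counting error. They are also the smallest picked from many genes over 6 libraries. Arsi was at 0.487, 2.24 and 1.84 CPM in cKO, against 2.42, 3.33 and 1.86 CPM in WT.

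Other known targets of MRTF and SRF, a list of 31 genes that leaves out the 10, were counted the same way. Of the 28 tested, 23 were below 0 with a median of -0.17, and -0.11 without WT 2. None passed with edgeR, limma-voom or DESeq2, 1 was lower at an unadjusted p under 0.05, against 2.96% of all genes, and in 3 (Vcl, Tgfb1i1 and Wdr1) every cKO library lay below every WT library, against 5.89% of all genes. Vcl, vinculin, which ties actin to adhesions, was at 20.3, 20.7 and 17.0 CPM in cKO, against 26.4, 24.0 and 23.1 CPM in WT (log2 fold change -0.34 ± 0.14, edgeR adjusted p = 0.745). Zyx, the adhesion protein zyxin, had a log2 fold change of -0.22 ± 0.11 and Myh11 one of -2.57 ± 1.31. On the higher side Smtn (smoothelin), Actn1 (alpha-actinin 1) and Synpo2 had values of 0.14 ± 0.13, 0.20 ± 0.28 and 0.25 ± 0.43. The most abundant targets overlapped between groups: Ccn2 was at 5090 ± 331 CPM in cKO and 6130 ± 1476 CPM in WT, Actb (beta actin) at 1350.5 ± 168 CPM in cKO and 1512 ± 26.0 CPM in WT, and Ccn1 had a log2 fold change of -0.06 ± 0.24. Actg2, Actc1 and Lmod1, smooth and cardiac muscle genes, had too few reads to be tested.

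The upstream regulators had no common sign: of 15 tested genes of the actin and MRTF switch, 8 were below 0 and 7 above, with a median of -0.0036. At an unadjusted p under 0.05 in edgeR, 2 (Cfl1 and Elk3) were lower and 0 higher, against 2.96% and 3.54% of all genes. Without cKO 1, WT 1 or WT 2, 0 were lower at that level. In the same 2 genes every cKO library lay below every WT library, against 5.89% of all genes tested. Mrtfa (MRTF-A) was at 9.78, 7.67 and 9.38 CPM in cKO, against 12.2, 9.61 and 10.2 CPM in WT (log2 fold change -0.26 ± 0.21, edgeR adjusted p = 0.894). Mrtfb (MRTF-B) was at 23.7, 17.3 and 20.1 CPM in cKO, against 17.0, 16.5 and 16.3 CPM in WT, with no overlap (0.29 ± 0.16, edgeR adjusted p = 0.818). No overlap with every cKO library higher held for 6.41% of all genes tested. Myocd, the muscle relative of MRTF, was at 2.83 to 3.95 CPM in cKO and 2.63 to 5.27 CPM in WT. Cfl1 (cofilin), which cuts actin filaments and feeds the monomer pool, was at 189, 181 and 208 CPM in cKO, against 226, 220 and 222 CPM in WT (-0.21 ± 0.08, edgeR adjusted p = 0.715). Rhoa, the GTPase that promotes filament assembly, had a log2 fold change of 0.01 ± 0.07. Rock1, a kinase that RhoA activates, had 0.08 ± 0.10. Elk3 and Elk4, ternary complex factors that compete with MRTF for SRF, had log2 fold changes of -0.29 ± 0.12 and -0.23 ± 0.17, and Scai and Diaph3 had 0.41 ± 0.34 and 0.47 ± 0.49.

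The other arm of SRF, in which ternary complex factors turn on immediate early genes, had no common sign. Of 9 genes 4 were below 0 and 5 above, with a median of 0.06, and the split moved with single libraries. Without cKO 1, 7 were below 0, with a median of -0.55, and 5 were lower at an unadjusted p under 0.05. In that fit 1199 of 17236 genes had such a p, in either direction. With all 6 libraries 0 were lower and 1 was higher, against 2.96% and 3.54% of all genes. Without WT 1, 6 were below 0 (median -0.15), and without cKO 2 or cKO 3 the median was 0.27 or 0.32. Egr3 was at 10.9, 12.2 and 9.12 CPM in cKO, against 7.29, 8.47 and 8.78 CPM in WT (0.39 ± 0.21, edgeR adjusted p = 0.812), and Egr2 had a log2 fold change of 0.62 ± 0.26. Fos, Junb and Mcl1 had -0.47 ± 0.48, -0.30 ± 0.31 and -0.04 ± 0.11, and Egr1, Fosb and Ier2 had 0.06 ± 0.39, 0.26 ± 0.56 and -0.09 ± 0.30. Fos was at 49.6 CPM in cKO 1 and 10.9 CPM in cKO 3, a wider gap than that between the group means.

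The partners on which these proteins act had values on both sides of 0. Of 8 myosin chains and subunits of light chain phosphatase, 4 were below 0 and 4 above, with a median of -0.01, and none had an unadjusted p under 0.05 with edgeR, limma-voom or DESeq2. Myh10, non-muscle myosin heavy chain IIB, had a log2 fold change of 0.22 ± 0.18, and Myl6, Myl12a and Myl12b, myosin light chains, had -0.03 ± 0.09, -0.05 ± 0.09 and 0.01 ± 0.22. The phosphatase genes Ppp1r12a, Ppp1cb and Ppp1r12b had 0.14 ± 0.11, -0.12 ± 0.10 and -0.24 ± 0.27.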

How the data were processed

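The authors deposited raw read counts per Ensembl gene, on which all tests were run; a second deposited table, of normalized values, was not used. Per the submitters' processing notes, GRCm38 was the build and the tools were HISAT2 2.2.1, FastQC 0.11.9, DESeq2 1.30.1, featureCounts 2.0.1 and R 4.0.5. The annotation, strandedness and handling of multi-mapped reads are unstated. Per the labels' protocols, full-length cDNA was made with an ultra low input kit. Symbols and positions were found for 55141 of 55401 identifiers in GENCODE M21.

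Genes were filtered with filterByExpr, scaled with TMM and fitted in edgeR 4.0.16 under R 4.3.3 (glmQLFit and glmQLFTest, group as the only term, 4 residual degrees of freedom), with Benjamini-Hochberg adjustment over 16260 genes. The SE is the log2 fold change over the square root of F. No exact permutation test of 3 against 3 can go below 0.1, so none was used. Chi-square per degree of freedom between libraries of a group was 31.4 to 36.5, so none was a duplicate. The fit was tested on simulated data. The members and lists were chosen with earlier results of these data known. Named genes are the members, Scin, the 3 with the smallest p in each direction and the 3 most abundant of each pathway list, Mrtfa, Mrtfb and Myocd, the closest profiles to Acta2 and Tagln, and abundant cell type markers, most given as sums. Tgfb1i1, Wdr1, Pcsk7, untested genes, Acan, Des, Ckm, Notch3, Mcam, Lmod1 and Myh1 were named after their values were seen. Alternatives were RLE factors, library sizes alone, DESeq2 1.42.0, limma-voom (limma 3.58.1), no low-count filter, at least 1 CPM in 3 libraries, the replicate number as a block, and leaving out each library. Floors cover counting error only.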

Additional observations from a re-analysis of the deposited data

How the results depend on the processing

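Over 116 combinations of a tested gene and an alternative, 113 kept the direction and the side of the threshold. No member passed in the main fit, so a kept combination can still differ in size. Acta2 counts as kept at -0.06 without WT 2, against -1.65 with all 6 libraries. Myl9 turned to 0.044 without WT 2 (-0.81 to 0.044 over single libraries left out) and Cnn2 to 0.016 without WT 1 (-0.26 to 0.016), and Tagln2 passed with DESeq2 (adjusted p = 0.0192); the cause was not tested. Over all genes, the 1 gene past an adjusted p of 0.05 became 91 with DESeq2 (44 higher, 47 lower) and 3 with no low-count filter, where more genes were tested, and 1 to 2 with single libraries left out, the 2 being without WT 3. The median of the members ran from -0.60 to -0.36 when libraries were left out singly (-0.36 without WT 2, -0.37 without cKO 2), and from -0.52 to -0.42 under the other alternatives. That of the other MRTF and SRF targets ran from -0.19 to -0.11 in the same fits. No scaling moved the median of all genes by more than 0.1. Tagln was not tested under the filter of at least 1 CPM in 3 libraries. Libraries with the same number did not deviate together (r = -0.0193, 0.0712 and 0.0235 across genes), so no pairing by number was seen. The r of libraries with different numbers is not given, so a pairing is not excluded. With the replicate number as a block 1 gene passed, and 0 of the 9 members did. At an unadjusted p under 0.05 were 5 of the 9, and 985 of all 16260 genes in that fit, in either direction. Allowing CArG-like boxes took the count of member promoters with a box to 5, against 4 with exact boxes. Depth, and for Tagln the overlap with genes on the opposite strand, limit Tagln and Cnn1, with 0 to 26 reads in all libraries but WT 2 for Cnn1 (87 reads).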
